A study of Mus musculus with 6 samples.

Results

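The 30 genes described here encode enzymes that bring fatty acids into mitochondria, oxidise them there and make or use ketone bodies. They were chosen by name, and 29 of the 30 had a probe set annotated with that gene alone, among 30702 named genes on the array. Etfb, whose probe set the annotation also gives to a microRNA gene, was not analysed here. Cpt1c and Mlycd had 2 probe sets each, and the one with the higher mean over the 6 arrays stands for the gene. Whole-transcript microarrays measured total RNA of inguinal subcutaneous white fat from male C57BL/6 mice aged 2 months. The KO group held 3 mice with floxed Tfg alleles (TFG f/f) and Adipoq-ERT2Cre, a tamoxifen-inducible Cre recombinase driven by the promoter of the adiponectin gene. The WT group held 3 mice with the same floxed alleles and no Cre, and both groups received tamoxifen into the peritoneum for 5 days, 2 weeks before the RNA was taken. The Cre acts only in cells that use the adiponectin promoter, which marks fat cells, while the RNA came from all cells of the tissue. In such bulk RNA, more cells of a type and more RNA per cell cannot be told apart.

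Fatty acids are activated to acyl-CoA and cross into mitochondria bound to carnitine. Inside, a repeated sequence of dehydrogenation, hydration, a second dehydrogenation and thiolysis shortens the chain and releases acetyl-CoA, and electrons from the dehydrogenases pass through the electron transfer flavoprotein to the respiratory chain. White fat stores and releases fatty acids more than it burns them, while brown and beige fat oxidise them to make heat. Ketone bodies are made from acetyl-CoA mainly in the liver and are used as fuel in other tissues.

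Several features of the arrays stand beside every result below. Median signals of all probe sets were 6.47 to 6.76 on the KO-labelled and 6.96 to 7.02 on the WT-labelled arrays, in log2 units as deposited. KO 2 stood apart, with correlations of 0.960 and 0.965 with the other KO-labelled arrays, which correlated at 0.986 with each other. With the WT-labelled arrays KO 2 correlated at 0.874 to 0.900. The mean of 21 housekeeping genes was 9.78 ± 0.44 on KO-labelled and 8.64 ± 0.11 on WT-labelled arrays (SD, n = 3 each), a difference of 1.14. Changes over the whole table had a median of -0.37 for the 65956 probe sets and -0.18 for the 19232 protein-coding genes. Tfg itself was not lower in the values as deposited, at 7.99, 8.21 and 8.03 on KO 1 to KO 3 and 7.97, 7.94 and 7.91 on WT 1 to WT 3 (change 0.14 ± 0.11, SE, adjusted p = 0.345). Scaled to the housekeeping mean of each array, it was called lower, at -1.01 (adjusted p = 0.0171). That scaling called 80.5% of protein-coding genes lower, and the median protein-coding gene changed by -1.32, more than Tfg. Which exons its probe set reads is not stated in the labels or the annotation. Tfg therefore does not settle the labels, and each direction below rests on the labels as deposited.

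Most genes of mitochondrial fatty acid oxidation read higher on the KO-labelled arrays. In a linear model over all probe sets (limma, Benjamini-Hochberg adjustment, adjusted p under 0.05), 19 of the 29 genes rose, 0 fell and 10 did not pass, with a median change of 1.37 on the log2 scale, or 2.59-fold. Over all protein-coding genes the same test called 10.7% higher and 10.2% lower. Of the 21 housekeeping genes it called 12 higher and 0 lower, with a median change of 1.11. For 17 of the housekeeping genes all 3 KO-labelled values exceeded all 3 WT-labelled values. The median of the 29 oxidation and ketone genes lay 1.74 above that of all probe sets and 1.55 above that of the protein-coding genes. For 22 genes the 3 KO-labelled values exceeded all 3 WT-labelled values, for 2 they lay below and for 5 the groups overlapped, while over protein-coding genes 23.3% lay above and 41.0% below. When each array was scaled to its housekeeping mean, which moved the median over all probe sets to -1.51, 9 of the 29 genes were called higher and 8 lower, beside 1.83% and 80.5% of protein-coding genes. Their median change was then 0.23. Quantile normalization left 13 called higher, beside 12.0%.

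Adjusted p values of the 19 genes that rose ran from 0.0354 to 0.0459, all close to the threshold. Leaving out 1 array at a time changed the count. Of the 29 genes, 17 passed without KO 1 and 16 without KO 2, beside 10.4% and 9.92% of protein-coding genes called higher, but 0 passed without KO 3, WT 1, WT 2 or WT 3, with 20 higher at an unadjusted p under 0.05 in each of those 4 fits. At that unadjusted threshold 17.2% of protein-coding genes were higher without KO 3, 14.1% without WT 1, 14.4% without WT 2 and 13.6% without WT 3.

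**Figure D1:**
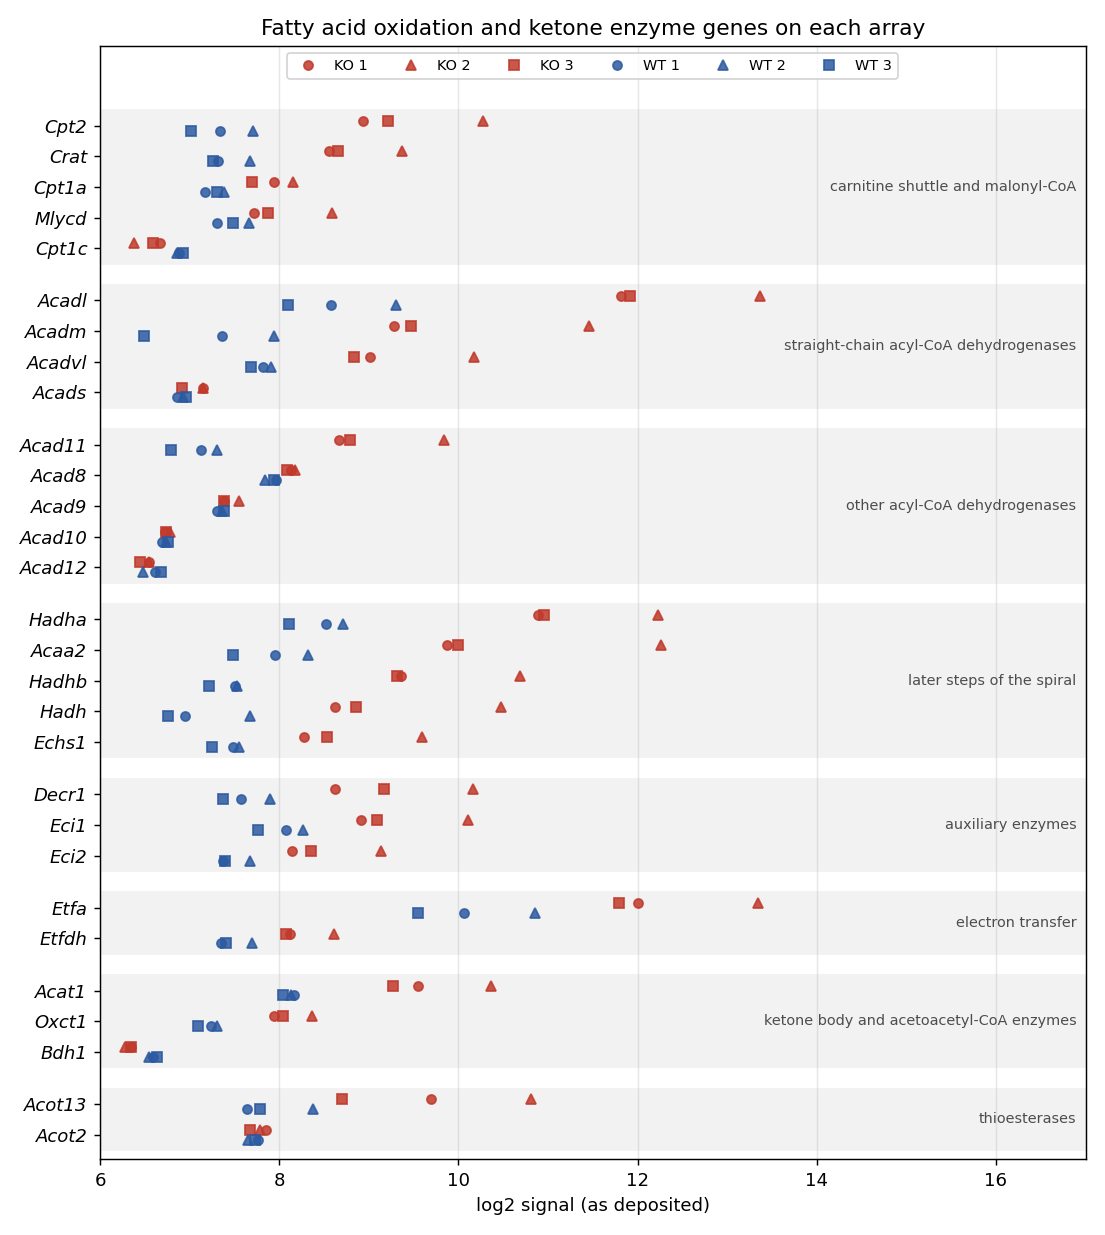
Log2 signal (horizontal axis, as deposited) of each of the 29 genes on the 3 KO-labelled arrays (red) and the 3 WT-labelled arrays (blue), grouped by role. For 22 genes the red points lie to the right of all blue points, and KO 2, the red triangle, is the highest of all arrays for 25 genes, level with KO 1 for Acads.

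Entry into mitochondria was described by 5 genes, of which 3 rose. Cpt2, the carnitine palmitoyltransferase of the inner membrane, read 8.94, 10.28 and 9.21 on KO 1 to KO 3, against 7.34, 7.71 and 7.02 on WT 1 to WT 3. The groups did not overlap and KO 2 was highest; the change was 2.12 ± 0.38 (SE), or 4.35-fold (adjusted p = 0.0354). Cpt1a encodes the outer-membrane enzyme that malonyl-CoA inhibits and that commits fatty acids to oxidation. It read 7.94, 8.15 and 7.70 on the KO-labelled arrays, against 7.17, 7.38 and 7.31 on the WT-labelled ones. Its change of 0.64 ± 0.15 was smaller, at 1.56-fold (adjusted p = 0.0411), and turned to -0.50 under housekeeping scaling. Crat, which moves acetyl groups between CoA and carnitine, rose 2.72-fold (adjusted p = 0.0354).

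Cpt1c and Mlycd did not pass on the probe sets that stand for them. Cpt1c, a paralogue known mainly from neurons, read 6.67, 6.38 and 6.59 on the KO-labelled arrays, against 6.88, 6.86 and 6.93 on the WT-labelled ones. All 3 KO-labelled values lay below the WT-labelled values, at a change of -0.34 ± 0.12 (adjusted p = 0.0766), close to the median of all probe sets. Its dimmer probe set read 6.48, 6.24 and 6.41, against 6.72, 6.94 and 6.85, and was called lower, at -0.46 ± 0.12 (adjusted p = 0.0488). Mlycd encodes malonyl-CoA decarboxylase, which removes the inhibitor of the Cpt1 enzymes. It read 7.72, 8.59 and 7.88, against 7.31, 7.66 and 7.48, with no overlap and a change of 0.58 ± 0.25 (adjusted p = 0.116). The dimmer probe set of Mlycd read 6.03, 6.04 and 6.10 on the KO-labelled arrays, against 5.94, 6.21 and 6.45 on the WT-labelled ones, so the changes of the Mlycd probe sets had opposite signs, the second with overlap (adjusted p = 0.466).

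The acyl-CoA dehydrogenases of straight chains, which start each turn of the spiral, differed widely in size of change. Acadl, the long-chain enzyme, had the largest change of the 29 genes, and 0.192% of protein-coding genes had a larger rise in signal. It read 11.81, 13.37 and 11.91 on KO 1 to KO 3, against 8.58, 9.30 and 8.10 on WT 1 to WT 3, a change of 3.70 ± 0.51 (SE), or 13.0-fold (adjusted p = 0.0354). The lowest KO-labelled value was more than 2 log2 units above the highest WT-labelled one. Acadm, the medium-chain enzyme, rose by 2.81 ± 0.67, or 7.0-fold (adjusted p = 0.0417). Acadvl, the very-long-chain enzyme of the inner membrane, read 9.01, 10.17 and 8.83, against 7.82, 7.91 and 7.69, and rose 2.89-fold (adjusted p = 0.0407). Acads, the short-chain enzyme, read 7.15, 7.15 and 6.91 on the KO-labelled arrays, against 6.86, 6.93 and 6.96 on the WT-labelled ones. Its groups overlapped, at a change of 0.15 ± 0.12 (adjusted p = 0.321).

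Among the 5 other genes of the dehydrogenase family, 1 rose. Acad11, known to act on hydroxylated fatty acids, read 8.67, 9.84 and 8.79 on the KO-labelled arrays, against 7.13, 7.30 and 6.79 on the WT-labelled ones. The change was 2.03 ± 0.34 (SE), or 4.08-fold (adjusted p = 0.0354). Acad8, the isobutyryl-CoA dehydrogenase of valine breakdown, read 8.13, 8.18 and 8.09, against 7.96, 7.84 and 7.94. Its groups did not overlap, yet the change of 0.22 ± 0.10 did not pass (adjusted p = 0.138). Acad9, also an assembly factor of respiratory complex I, read 7.38, 7.55 and 7.38, against 7.30, 7.36 and 7.38 (adjusted p = 0.514). Acad10 read 6.72, 6.78 and 6.74, against 6.69, 6.74 and 6.76 (adjusted p = 0.902). Acad12 read 6.55, 6.55 and 6.45, against 6.61, 6.48 and 6.68 (adjusted p = 0.602). Groups overlapped for these 3 genes, whose changes lay between -0.07 and 0.09.

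All 5 genes of the later steps rose. The trifunctional protein carries out the remaining steps for long chains, and its alpha subunit gene Hadha read 10.89, 12.23 and 10.95 on KO 1 to KO 3, against 8.52, 8.71 and 8.11 on WT 1 to WT 3. That was a change of 2.91 ± 0.39 (SE), or 7.52-fold (adjusted p = 0.0354), with more than 2 log2 units between the groups. Its beta subunit gene Hadhb, which encodes the thiolase, rose 5.17-fold (adjusted p = 0.0354). For shorter chains, the hydroxyacyl-CoA dehydrogenase gene Hadh rose 4.57-fold (adjusted p = 0.0423) and the thiolase gene Acaa2 6.93-fold (adjusted p = 0.0417). Echs1, the short-chain hydratase gene, had the smallest change of the 5. It read 8.28, 9.59 and 8.53, against 7.48, 7.55 and 7.25, and rose 2.59-fold (adjusted p = 0.0446). Acaa2 had the widest spread of all 29 genes on the KO-labelled arrays, with an SD of 1.34, since KO 2 read 12.26 and KO 1 and KO 3 read 9.87 and 10.00.

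Hadha and Hadhb are transcribed away from each other from a common stretch of chromosome 5. In the RefSeq windows of GRCm38.p6, which hold 250 bases before and 50 after each gene's start, Hadha lies at chr5:30154931-30155230 on the minus strand and Hadhb at chr5:30155003-30155302 on the plus strand. They share 228 bases, chr5:30155003-30155230. The Hadha window is shown because it shares most of its bases with the window of Hadhb, and both genes rose, with the shared bases in capitals.
Hadha: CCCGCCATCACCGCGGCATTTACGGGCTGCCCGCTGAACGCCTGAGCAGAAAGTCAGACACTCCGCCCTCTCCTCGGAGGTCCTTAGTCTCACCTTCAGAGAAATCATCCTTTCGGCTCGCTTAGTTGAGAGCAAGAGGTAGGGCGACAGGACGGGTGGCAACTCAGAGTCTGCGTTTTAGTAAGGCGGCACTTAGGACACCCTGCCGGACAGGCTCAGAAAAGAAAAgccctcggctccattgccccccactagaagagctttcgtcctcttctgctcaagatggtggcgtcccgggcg

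The auxiliary enzymes, which bring double bonds of unsaturated fatty acids into a form the spiral can use, rose too, in 3 of 3 genes. Decr1, the dienoyl-CoA reductase gene, read 8.62, 10.16 and 9.17 on the KO-labelled arrays, against 7.57, 7.90 and 7.37 on the WT-labelled ones, a change of 1.70 ± 0.40 (SE), or 3.26-fold (adjusted p = 0.0407). Of the enoyl-CoA isomerase genes, Eci1 rose 2.52-fold (adjusted p = 0.0450). Eci2 read 8.14, 9.14 and 8.35, against 7.37, 7.67 and 7.39, and rose 2.10-fold (adjusted p = 0.0459), but its change was -0.078 under housekeeping scaling. No KO-labelled value of these genes lay within the WT-labelled range.

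Both measured genes of electron transfer rose. Etfa, a subunit of the electron transfer flavoprotein, read 12.00, 13.34 and 11.79 on KO 1 to KO 3, against 10.06, 10.86 and 9.55 on WT 1 to WT 3, a change of 2.22 ± 0.51 (SE), or 4.66-fold (adjusted p = 0.0401). Etfdh, the dehydrogenase that hands these electrons to ubiquinone, read 8.12, 8.61 and 8.07, against 7.35, 7.70 and 7.41, and rose 1.72-fold (adjusted p = 0.0428), with a change of -0.36 under housekeeping scaling. The groups were apart for both. Without KO 2 neither passed, nor did Cpt1a, and without KO 1 Cpt1a and Etfdh did not.

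Of the ketone genes, 2 of 3 rose. Acat1, whose thiolase joins and splits acetoacetyl-CoA, read 9.55, 10.36 and 9.27 on the KO-labelled arrays, against 8.17, 8.13 and 8.04 on the WT-labelled ones, a change of 1.61 ± 0.28 (SE), or 3.06-fold (adjusted p = 0.0354). Oxct1 encodes the enzyme that activates acetoacetate for use as fuel. It read 7.94, 8.37 and 8.04, against 7.24, 7.30 and 7.09, and rose 1.88-fold (adjusted p = 0.0354), though its change turned to -0.24 under housekeeping scaling. Bdh1, which interconverts the 2 main ketone bodies, read 6.34, 6.28 and 6.34, against 6.59, 6.55 and 6.64. Its KO-labelled values lay below all WT-labelled ones, at -0.27 ± 0.10 (adjusted p = 0.0836), but its change turned positive, at 0.057, when each array was centred on its median.

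Neither thioesterase gene passed, though their values differed. Acot13, which encodes a thioesterase associated with mitochondria, read 9.69, 10.81 and 8.70 on KO 1 to KO 3, against 7.64, 8.38 and 7.78 on WT 1 to WT 3. The groups were apart, and the change of 1.80 ± 0.54 (SE) came with an SD of 1.06 on the KO-labelled arrays (adjusted p = 0.0560). Acot2, the matrix thioesterase of long acyl chains, read 7.85, 7.79 and 7.67, against 7.76, 7.65 and 7.73, with overlap (adjusted p = 0.683).

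**Figure D2:**
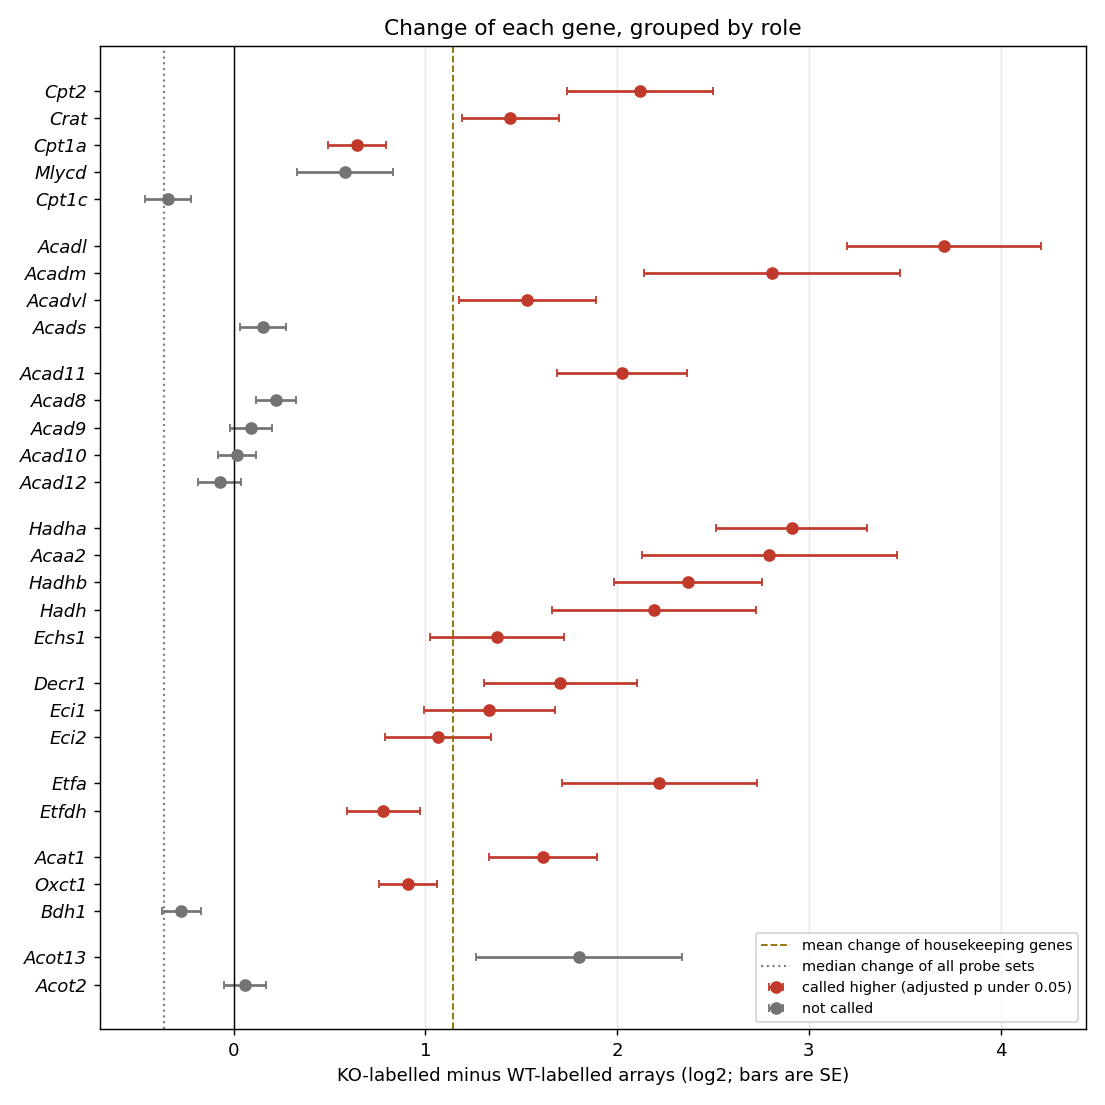
Change of each gene, KO-labelled minus WT-labelled arrays on the log2 scale with its SE (horizontal axis), grouped by role from the carnitine shuttle at the top to the thioesterases at the bottom. Red genes were called higher and grey genes were not called; 16 of the 29 lie right of the dashed line, the housekeeping mean change of 1.14, and the dotted line marks the median of all probe sets at -0.37.

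Most of the genes were highest on KO 2. It was the highest of all 6 arrays for 25 of the 29 genes, level with KO 1 for Acads, and for 19 of the 19 called genes. The called genes averaged 9.18, 10.42 and 9.26 on KO 1 to KO 3, against 7.74, 8.04 and 7.48 on WT 1 to WT 3. They were picked as higher on the KO-labelled arrays, so the gap between the groups follows from that choice. Among the WT-labelled arrays, WT 2 was highest for 20 of the 29 and 18 of the 19. WT 3 was lowest for 16 of the 29, all of them called. No share of all protein-coding genes is given for this order. KO 2 was also the highest of all arrays for 20 of 21 housekeeping genes. Among the WT-labelled arrays, WT 2 was highest for 13 of these 21 and WT 3 lowest for 13. The 10 genes that were not called averaged 7.42, 7.61 and 7.28, against 7.16, 7.25 and 7.23. Over all 29 genes the median SD was 0.57 on the KO-labelled and 0.17 on the WT-labelled arrays. Without KO 2 the median change was 0.98, against 1.37 with it.

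Up to a mean signal of 10, the change grew with the signal level, in these genes as in the whole table. Of the 5 genes with a mean under 7 over the 6 arrays, Acad10, Acad12, Acads, Bdh1 and Cpt1c, 0 were called, and 1.17% of the protein-coding genes between 6 and 7 were called higher. Between 7 and 8, 3 of 6 genes were called, against 13.2% of protein-coding genes. Between 8 and 9, where 14 of the genes lay, 12 were called and their median change was 1.66, while 43.8% of 1726 protein-coding genes were called higher, with a median change of 0.63. Acaa2 and Hadha lay between 9 and 10, where the median protein-coding gene changed by 1.15 and 52.4% were called higher. These genes changed by 2.79 and 2.91. Above 10 the whole table no longer did so: the median protein-coding gene changed by 0.37 between 10 and 11, where Acadl changed by 3.70, and by -1.10 between 11 and 12, where Etfa changed by 2.22. In these classes 42.9% and 39.3% of protein-coding genes were called higher. The level is a mean over both groups, so a large rise itself moves a gene into a higher class.

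On the WT-labelled arrays most of the genes read close to the median level of olfactory receptor genes, used here as a guide to dim signal. The 1082 olfactory receptor genes, a list taken up after their values were seen, had median signals of 6.67 on KO-labelled and 7.47 on WT-labelled arrays, and 15 of the 29 genes had a WT-labelled mean at or below 7.47. On the KO-labelled arrays 3 of the 29, Acad12, Bdh1 and Cpt1c, stood at or below 6.67. The files used here hold no detection calls, so the folds of genes near these levels are uncertain.

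**Figure D3:**
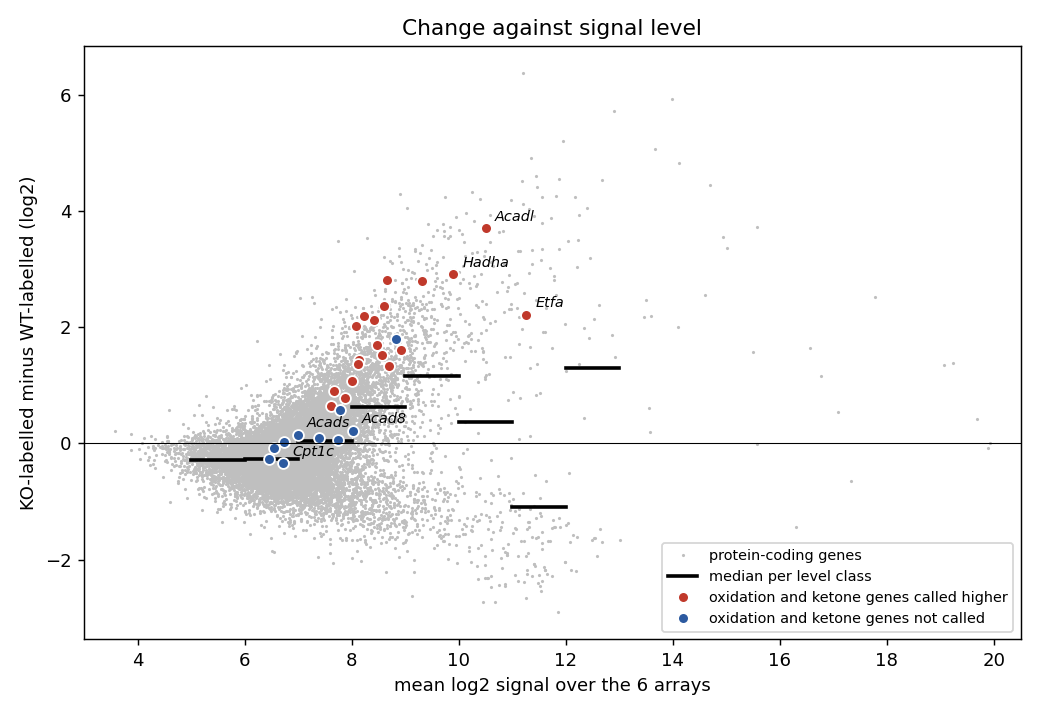
Change (vertical axis, KO-labelled minus WT-labelled, log2) against the mean log2 signal over the 6 arrays (horizontal axis) for 19232 protein-coding genes (grey), with the median of each level class as a black bar and the 29 genes in colour. The genes called higher (red) lie above the median of their class, from Cpt1a at 0.64 to Acadl at 3.70. They are coloured by that call, so this position is largely set by the choice.

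Differences between related genes within an array do not depend on a shift that is equal for all genes of that array. They can still hold a shift that depends on the signal level, where the genes of a pair differ in level. In this way 7 pairs were compared by the exact 2-sided permutation test. With 3 arrays per group its smallest possible p is 0.1, which every pair reached, and the Benjamini-Hochberg adjusted p was 0.1 for each. The pairs were chosen with earlier results of these data known. Of single protein-coding genes, 23.3% had all 3 KO-labelled values above the WT-labelled ones and 41.0% below. No share over all gene pairs is given here, so the count of pairs that lie apart cannot be set against one. Hadha minus Hadhb was 1.53, 1.54 and 1.63 on KO 1 to KO 3, against 1.01, 1.18 and 0.89 on WT 1 to WT 3. This pair had the tightest KO-labelled values, with an SD of 0.055, and the alpha subunit gene changed by 0.54 more than the beta subunit gene. Hadha had a mean signal between 9 and 10, where the median protein-coding gene changed by 1.15. Hadhb lay between 8 and 9, where that median was 0.63. The part of the level in the pair differences was not tested. Eci1 minus Eci2 was 0.77, 0.97 and 0.74, against 0.71, 0.60 and 0.37, a difference of 0.27.

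The other pairs differed more. Cpt1a minus Cpt2 was -1.0, -2.13 and -1.51 on the KO-labelled arrays, against -0.17, -0.33 and 0.29 on the WT-labelled ones, so the inner-membrane gene changed by 1.48 more than the outer-membrane one. Acadl minus Acadm was 2.53, 1.91 and 2.44, against 1.22, 1.36 and 1.61. Here the long-chain gene changed by 0.90 more. Acads minus Acadvl changed by -1.38, Bdh1 minus Oxct1 by -1.18 and Acot2 minus Acot13 by -1.74. In each of the last 3 pairs the first gene did not pass the test across all probe sets, and neither did Acot13.

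**Figure D4:**
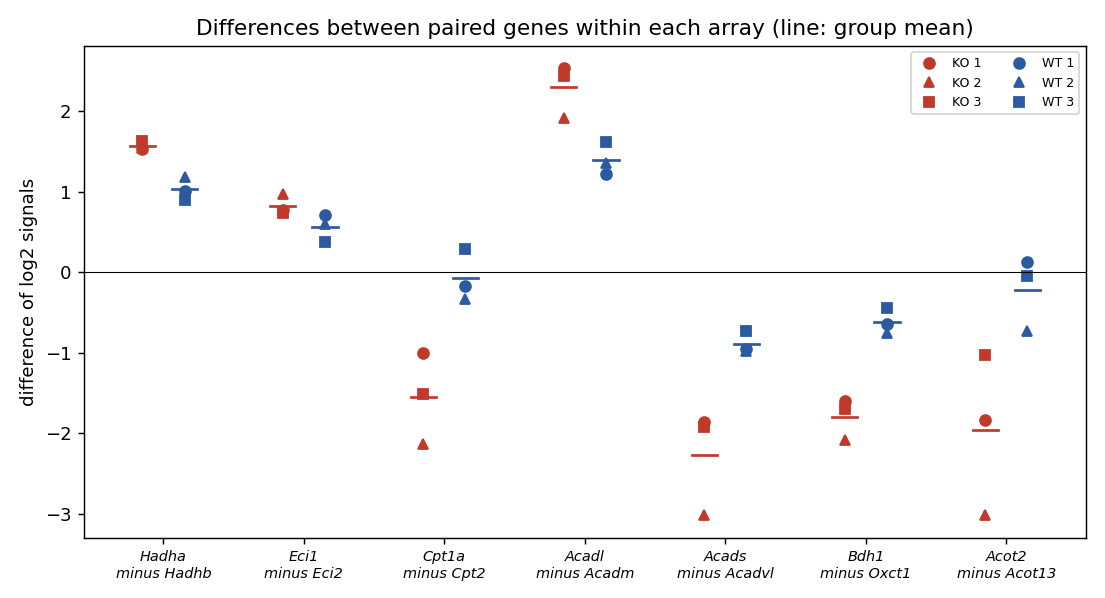
Difference of log2 signals between paired genes within each array (vertical axis) for 7 pairs, with KO-labelled arrays in red, WT-labelled arrays in blue and group means as lines. The groups lie apart in every pair shown, most narrowly for Eci1 minus Eci2, where the lowest KO-labelled value is 0.74 and the highest WT-labelled value 0.71. The pairs were chosen with earlier results of these data known, and no share over all gene pairs is given.

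Of other mitochondrial genes of oxidation, ketone metabolism and transport, 8 of 11 measured rose and 0 fell, with a median change of 1.0. Slc25a20, the carrier that exchanges acylcarnitine across the inner membrane, read 8.98, 9.89 and 8.66 on KO 1 to KO 3, against 7.03, 7.12 and 6.87 on WT 1 to WT 3 (adjusted p = 0.0354). It thus rose beside Cpt2, with a change of 2.17. Cpt1b, the muscle and brown fat form of the outer-membrane enzyme, read 7.62, 8.29 and 7.73, against 7.09, 7.26 and 6.92, a change of 0.79 (adjusted p = 0.0477). Acsm3, which encodes a medium-chain acyl-CoA synthetase, rose by 2.85 (adjusted p = 0.0357) and Acadsb, the short branched-chain dehydrogenase gene, by 1.19 (adjusted p = 0.0357).

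Genes that regulate oxidation moved unevenly, with 4 of 14 measured called higher and 0 lower, and a median change of 0.35. Pparg, the main transcription factor of fat cells, read 11.01, 12.45 and 11.22 on the KO-labelled arrays, against 8.14, 8.12 and 7.45 on the WT-labelled ones (adjusted p = 0.0354). Ppara, which activates oxidation genes in liver and other tissues, read 7.50, 8.25 and 7.58, against 6.78, 7.19 and 7.03. Its groups were apart, but its change of 0.78 did not pass (adjusted p = 0.0582). The coactivator gene Ppargc1a read 7.45, 7.96 and 7.15, against 7.15, 7.17 and 7.12, and overlapped (adjusted p = 0.201). Acacb, whose product makes the malonyl-CoA that restrains Cpt1 enzymes, rose by 3.23 (adjusted p = 0.0378), Prkaa1, a catalytic subunit of AMP-activated kinase, by 1.76 (adjusted p = 0.0459), and Pdk4, a kinase that restrains pyruvate oxidation, by 5.93 (adjusted p = 0.0354).

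Peroxisomes hold a separate oxidation pathway for very long and branched chains, and 4 of its 13 measured genes rose, with 0 lower and a median change of 0.38. Ehhadh, the gene of a peroxisomal bifunctional enzyme, read 8.08, 8.90 and 8.59 on KO 1 to KO 3. On WT 1 to WT 3 it read 6.06, 5.86 and 6.07 (adjusted p = 0.0354). Scp2 rose by 2.10 (adjusted p = 0.0361), and the transporter genes Abcd2 and Abcd3 by 2.02 and 0.92 (adjusted p = 0.0424 and 0.0361). The lists of other pathway genes were called higher in 16 of 38 genes together, against 10.7% of all protein-coding genes. Scaled to the housekeeping mean, 8 were called higher and 15 lower.

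The promoter windows of the genes were searched for letters that nuclear receptors of the PPAR and ERR families are known to bind, on both strands. Of the 30 listed genes, 24 had a window, with 25 windows in all. The direct repeat, AGGTCA and AGGTCA in the same direction with any 1 base between them, was in 0 of the 25 and in 0.0396% of all 32851 windows, and the longer single element TCAAGGTCA, which contains the half-site, was in 0 of 25 and in 0.423% of all. The half-site AGGTCA alone was in 5 of the 25, beside 16.3% of all windows. It lay in Acadm, Acadvl, Cpt1a and Echs1, which rose, and in Cpt1c, which did not pass. The windows of Acadm (chr3:153944594-153944893, minus strand), Cpt1a (chr19:3323051-3323350, plus strand) and Cpt1c (chr7:44974802-44975101, minus strand) are shown to compare a gene that rose strongly, one that rose little and one that did not rise, each with 1 half-site, read on either strand, in capitals.
Acadm: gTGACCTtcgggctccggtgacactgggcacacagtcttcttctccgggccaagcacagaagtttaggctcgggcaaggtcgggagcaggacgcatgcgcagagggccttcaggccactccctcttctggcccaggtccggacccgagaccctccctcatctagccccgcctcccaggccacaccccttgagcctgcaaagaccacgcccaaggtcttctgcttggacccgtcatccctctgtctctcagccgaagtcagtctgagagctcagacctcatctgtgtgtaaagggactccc
Cpt1a: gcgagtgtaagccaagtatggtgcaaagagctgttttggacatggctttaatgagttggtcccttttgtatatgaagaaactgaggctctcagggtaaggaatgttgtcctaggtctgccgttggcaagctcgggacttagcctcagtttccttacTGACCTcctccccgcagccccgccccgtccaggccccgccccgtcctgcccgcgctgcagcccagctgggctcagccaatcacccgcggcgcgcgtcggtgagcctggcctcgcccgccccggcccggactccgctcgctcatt
Cpt1c: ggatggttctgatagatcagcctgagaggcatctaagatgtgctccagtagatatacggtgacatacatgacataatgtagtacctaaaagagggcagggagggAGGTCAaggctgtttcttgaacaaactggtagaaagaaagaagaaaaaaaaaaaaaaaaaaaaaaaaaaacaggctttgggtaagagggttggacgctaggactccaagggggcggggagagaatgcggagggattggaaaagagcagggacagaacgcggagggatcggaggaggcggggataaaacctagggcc

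Markers of fat cells moved with the oxidation genes. Of 12 measured adipocyte markers 10 rose and 0 fell, with a median change of 2.96, and their mean was 12.50, 13.62 and 12.30 on KO 1 to KO 3, against 9.90, 10.45 and 8.75 on WT 1 to WT 3. All 12 read higher on every KO-labelled array than on every WT-labelled one, as did 23.3% of protein-coding genes and 17 of 21 housekeeping genes. Over protein-coding genes 10.7% were called higher. The order of the adipocyte markers among the arrays was like that of the called oxidation genes. KO 2 was highest for 12 of 12, WT 2 highest of the WT-labelled arrays for 10 and WT 3 lowest for 11. This order was not particular to these lists, since KO 2 was highest for 20 of 21 housekeeping genes and 8 of 9 endothelial markers. WT 2 was highest of the WT-labelled arrays for 13 and 7 of these, and WT 3 lowest for 13 and 8. Of 9 endothelial markers 9 rose, with means of 9.14, 9.72 and 8.97, against 7.38, 7.41 and 7.10. Of 11 measured brown and beige fat markers 3 rose, Cox8b, Cox7a1 and Cpt1b, and 0 fell. Ucp1, the uncoupling protein that defines brown fat, read 6.05, 7.07 and 6.12, against 5.40, 5.65 and 5.34, and did not pass (adjusted p = 0.0600). Negative changes were seen for 4 of the 11. Of these, Dio2 (-0.30), Elovl3 (-0.62) and Zic1 (-0.26) did not pass. They read lower on every KO-labelled array than on every WT-labelled one, as did 41.0% of protein-coding genes. The part of these cell types in the change of the oxidation genes was not tested.

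Skeletal muscle, which burns fatty acids, gave a signal on only some of the KO-labelled arrays. The mean of 16 muscle markers was 8.40, 9.65 and 6.96 on KO 1 to KO 3, against 7.13, 7.12 and 7.15 on WT 1 to WT 3, and 0 were called higher and 1, Tnnc1, lower. Atp2a1, the calcium pump of fast fibres, had the largest change of the list, and read 11.20, 13.39 and 7.12, against 7.19, 7.08 and 7.36. Not all markers rose: 4 of the 16, Mb, Tnnt1, Tnnc1 and Myh7, had negative changes, at -0.24, -0.15, -0.47 and -0.29. Over all 29 genes the median difference from the WT-labelled mean was 0.87 on KO 1, 2.07 on KO 2 and 1.02 on KO 3. The part of muscle in these values was not tested. Lymphocyte markers ran the other way, with 4 of 10 called lower beside 10.2% of protein-coding genes, and means of 6.69, 6.27 and 6.70, against 7.11, 7.15 and 7.16. Their median change of -0.54 was smaller in size than the -0.82 of the olfactory receptor genes. Of 10 macrophage markers 2 rose and 1 fell.

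**Figure D5:**
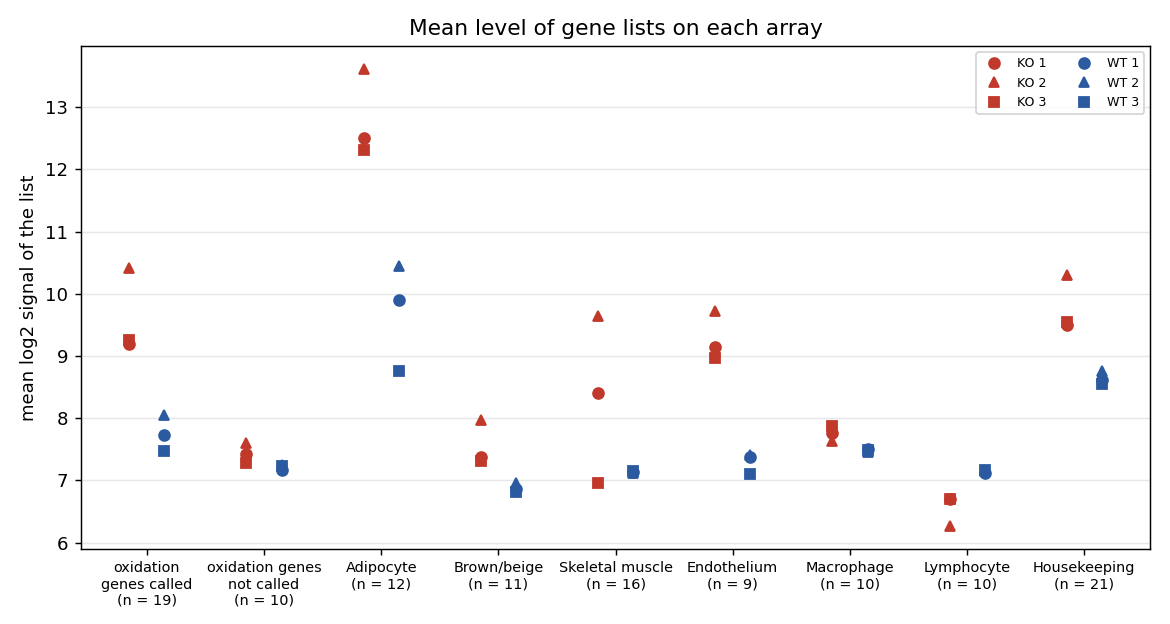
Mean log2 signal of gene lists on each array (vertical axis), with KO-labelled arrays in red left of WT-labelled arrays in blue and the number of measured genes under each list. The adipocyte and endothelial markers and the housekeeping genes are higher on all 3 KO-labelled arrays. The muscle list is high on KO 1 and KO 2 and reads 6.96 on KO 3. The 19 called oxidation genes are also higher on all 3 KO-labelled arrays, which follows from choosing them by their call on these arrays.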

How the data were processed

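RNA of inguinal white fat was measured on 6 whole-transcript arrays, 1 per mouse, with 3 biological replicates per group per the labels. The authors deposited a table of log2 values for 65956 probe sets, between 2.81 and 19.93. Transcriptome Analysis Console is named in the submitters' processing notes, and no label or file header states how background correction, summarisation or normalization was done. Arrays carry no read depth, so their number limits the precision, and 222 probe sets stood at the ceiling on all arrays.

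The platform annotation, with symbols updated through RefSeq, gave 31258 probe sets 1 symbol, 1492 several and 33206 none. A gene was read from the 1-symbol probe set with the highest mean. Deposited values were fitted without further normalization with limma 3.58.1 (R 4.3.3; lmFit and eBayes, KO against WT), and p-values were adjusted by Benjamini-Hochberg over all probe sets, with calls at an adjusted p under 0.05. The fit was tested on simulated data. Paired genes were compared by the exact 2-sided permutation test (scipy 1.17.1). Promoter windows came from RefSeq (GRCm38.p6).

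The genes, lists, pairs and markers were chosen with earlier results of these data known. In each role group, values of every array are given for the called genes with the largest and smallest change and for each gene not called; of other pathway lists, at most the 4 genes with the smallest p are named, besides Cpt1b, Slc25a20, Ppara, Pparg and Ppargc1a, which were always named. Alternatives were quantile normalization, median centring, housekeeping scaling, a filter on dim probe sets, other variance models, array weights, a replicate block, other probe set choices, a looser threshold and leaving out each array.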

Additional observations from a re-analysis of the deposited data

How the results depend on the processing

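Of the 29 genes, 19 were called higher, and 13 to 20 were under every alternative that kept all arrays except housekeeping scaling, which left 9 higher and 8 lower and a median change of 0.23. The 6 genes lost by quantile normalization were Acadm, Acadvl, Hadh, Echs1, Eci1 and Eci2. Calls of lower genes went to 2 at an adjusted p under 0.1 and to 1 (Cpt1c) with array weights. Leaving out 1 array gave 0 to 17 genes called higher, 0 called lower and a median change of 0.98 to 1.60, with 0.98 without KO 2. Without KO 3, WT 1, WT 2 or WT 3 no probe set was called in either direction by limma, and the smallest adjusted p was 0.0624, 0.0997, 0.0824 and 0.114, in that order of arrays. At an unadjusted p under 0.05, 20 of the 29 genes were higher in each of these 4 fits; the cause of the loss was not tested.

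With housekeeping scaling the change turned negative for Cpt1a (-0.50), Mlycd (-0.56), Acads (-0.99), Acad8 (-0.92), Acad9 (-1.05), Acad10 (-1.13), Eci2 (-0.078), Etfdh (-0.36), Oxct1 (-0.24), Acot2 (-1.09) and Tfg (-1.01, adjusted p = 0.0171). Acad12 and Bdh1 turned positive with quantile normalization (0.28 and 0.087) and median centring (0.26 and 0.057). Acad10 was between -0.0033 and 0.0317 when 1 array was left out. Housekeeping scaling subtracts a list that itself differed by 1.14 between the groups, and it called 80.5% of protein-coding genes lower.

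Other pathway genes called higher numbered 16, against 8 with housekeeping scaling and 0 to 13 without 1 array. Called lower were 0, against 15 with housekeeping scaling, 3 at an adjusted p under 0.1, and 1 each with a variance trend, a robust trend, array weights or only 1-symbol probe sets. Over all probe sets 3509 were higher, against 5902 at an adjusted p under 0.1, 709 with housekeeping scaling and 0 to 3469 without 1 array. Called lower were 10282, against 24774 at an adjusted p under 0.1, 17432 with array weights, 6773 among 1-symbol probe sets, 3259 with median centring, 2212 with quantile normalization, 58691 with housekeeping scaling and 0 to 10697 without 1 array. Higher calls made up 25.4% of all calls, 64.6% with quantile normalization, 61.2% with median centring and 1.19% with housekeeping scaling. The 7 pair differences kept their direction under the alternatives run.

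With the replicate number as a block, 19 of the 29 genes were called higher, 18 of them shared with the fit without it, which alone called Cpt1a; over all probe sets 2960 were higher and 8267 lower. Same-numbered arrays had deviations that correlated at 0.0015, 0.2048 and 0.1391, and KO 1 correlated more with WT 3 (0.1707) than with WT 1, so the numbers were not taken to pair the mice. Genes near the level of olfactory receptor genes on the WT-labelled arrays have the least certain folds.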
